A study of Mus musculus with 4 samples.

Results

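Wnt pathway genes were examined in mouse neural progenitor cells (NPCs) cultured on a soft or a stiff matrix, with and without knockdown of the transcription factor Srf. The genes were chosen by symbol: the Wnt ligands, the Frizzled (Fzd) receptors, the coreceptors Lrp5 and Lrp6, the ligand-processing enzyme Porcn, the R-spondins Rspo1, Rspo2 and Rspo3, the secreted inhibitors of the Dkk and Sfrp families with Wif1 and Notum, and the feedback and nuclear genes Axin2, Nkd1, Lef1 and Tcf7. This gave 49 of the 21862 genes whose symbol was listed once. The symbol rule itself used no level, but the family was proposed with differences between these libraries in view, so the values below are descriptions and no test was run.

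Wnt proteins are secreted lipid-modified ligands that bind Frizzled receptors. With the coreceptors Lrp5 and Lrp6 they stabilise β-catenin, which acts with Tcf and Lef factors to switch on targets that include feedback inhibitors of the pathway. Other Wnts, Wnt5a being the best known, act through Frizzled and Ror receptors without β-catenin. In the developing nervous system Wnt signals are known for their part in progenitor proliferation, regional patterning and the growth of axons.

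The cells were N31 NPCs, an adherent line obtained by differentiating induced pluripotent stem cells that carried doxycycline-inducible reprogramming transgenes (Oct4, Klf4, c-Myc and Sox2). Matrices of 0.5 or 12 kPa were coated with collagen, and the growth factors EGF and bFGF were left out. Srf knockdown was made with 1 retroviral short hairpin RNA, shSrf#1, and whether the control cells carried a control vector was not given for this experiment in the sources used here. Each of the 4 conditions (control and Srf knockdown, 0.5 and 12 kPa) was 1 RNA-seq library, so no spread between cultures was available and no p-value is given. Levels are FPKM, fragments scaled to transcript length and to the number of mapped reads, which are comparable between genes of different length.

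The estimated depth of the control libraries was 29200000 reads at 0.5 kPa and 24100000 at 12 kPa, and that of the Srf-knockdown libraries was 45000000 and 62400000. Ratios are given with a 95% interval for counting error only, which does not hold the error of culture or library preparation. Srf itself measured 34.4 and 35.6 FPKM in the control libraries and 16.2 and 17.4 in the Srf-knockdown libraries. Of 12 NPC markers, 6 or 7 were above FPKM 2 in each library. Sox1 and Hes5 were listed at 0 in every library, Nes and Vim were at or above 15.5, and 10 or 11 of 11 mesenchymal markers were above 2, with a summed level between 3298 and 3524. Single markers differed between control and knockdown libraries. Sox2, a progenitor factor, measured 4.29 and 5.49 FPKM in the controls and 19.1 and 20.4 in the knockdown libraries, whereas Nes measured 51.6 and 36.1 against 16.4 and 15.5. Sox2 was also among the inducible transgenes of these cells, and whether transgene reads entered its level was not given. The mesenchymal marker Postn measured 187.9 and 259.4 against 30.2 and 36.8, whereas Dcn measured 9.22 and 8.62 against 26.9 and 26.2. The summed level of 7 neuronal markers was 59.4 and 62.8 against 125.3 and 119.8. Of these, Stmn2 measured 19.1 and 18.7 against 64.6 and 61.3, whereas Snap25 measured 4.46 and 3.72 against 3.11 and 2.45. Markers within each of these lists thus differed in direction. The part of these differences in the knockdown ratios of Wnt pathway genes was not tested. The label NPC therefore rests on part of its markers, and in RNA from whole cultures fewer cells of a type and less RNA per cell cannot be told apart.

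The NPCs expressed part of the family. Of the 49 genes, 18 were above FPKM 2 in all 4 libraries, 27 were above 2 in at least 1, and 22 were at or below 2 in all. Of all 21862 genes, 10489 were above 2 in all libraries and 11351 in at least 1. Among the 22 members, 8 had their highest level between 0.5 and 2 and 14 stayed at or below 0.5. Wnt8a, Wnt8b and Dkk4 were listed at 0 in every library. Only 4 of 19 ligands passed FPKM 2 throughout, against 6 of 10 Frizzled receptors and both coreceptors.

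**Figure D1:**
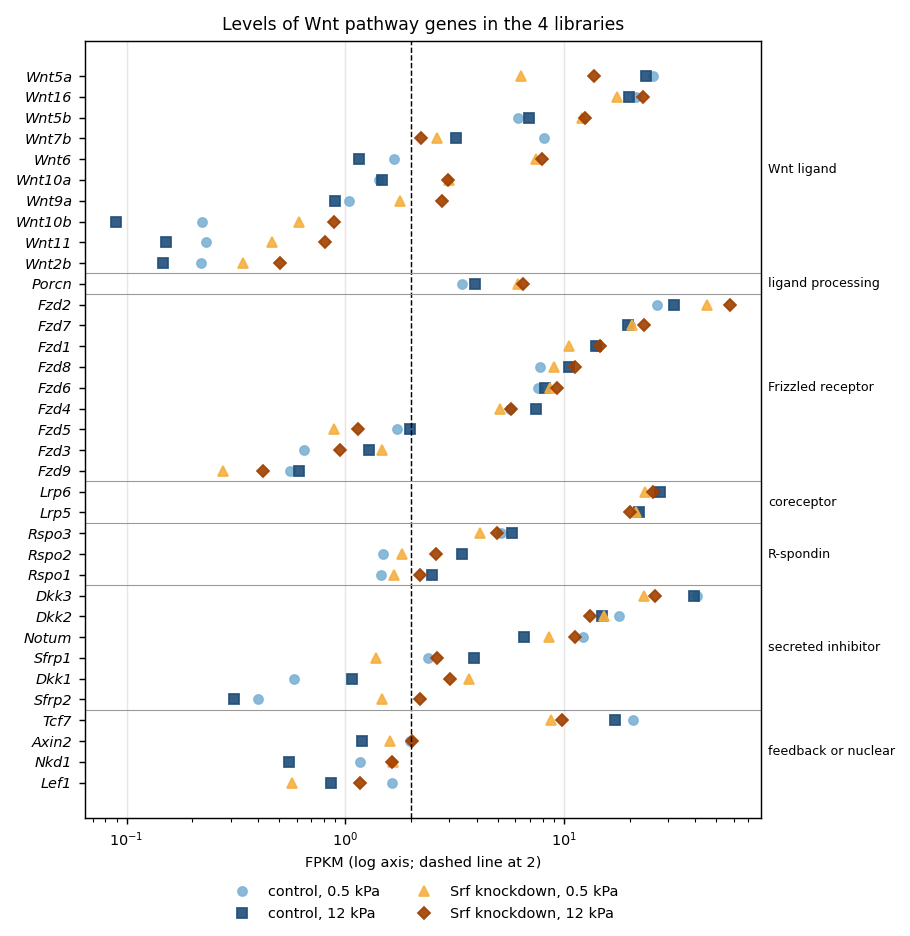
FPKM (log axis) of the 35 Wnt pathway genes whose highest level was above 0.5, grouped by role, with 1 point per library (circles and squares, control; triangles and diamonds, Srf knockdown); the dashed line marks FPKM 2. Fzd2, Dkk3, Lrp6 and Wnt5a have the highest points, and Wnt6, Dkk1 and Sfrp2 show the knockdown libraries well to the right of the controls.

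A pair of ligands dominated the control cells. Wnt5a, the prototype of the β-catenin-independent ligands, measured 25.6 FPKM in the control library at 0.5 kPa, 23.7 in the control at 12 kPa, 6.35 in the knockdown at 0.5 kPa and 13.8 in the knockdown at 12 kPa. Wnt16, a ligand best known from bone, measured 21.5, 19.9, 17.5 and 23.0 in the same order, which is kept for all values below. Wnt7b, a ligand required for blood vessel growth into the brain, was at 8.13, 3.22, 2.62 and 2.22, and Wnt5b, the paralog of Wnt5a, was at 6.15, 6.97, 12.1 and 12.5. The control at 0.5 kPa thus stood alone for Wnt7b, and both knockdown libraries stood above both controls for Wnt5b.

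Wnt6, Wnt10a and Wnt9a passed FPKM 2 in knockdown libraries alone. Wnt6 measured 1.67, 1.15, 7.51 and 7.98 FPKM, Wnt10a 1.42, 1.47, 3.002 and 2.95, and Wnt9a 1.05, 0.904, 1.78 and 2.78. For each gene both knockdown libraries were above both controls. Porcn, the acyltransferase that attaches the lipid to Wnts, followed the same order at 3.41, 3.94, 6.15 and 6.50. Wls, which carries Wnts to the cell surface, went the other way, with 218.5 and 226.2 in the controls and 158.3 and 160.3 in the knockdown libraries.

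Among receptors, Fzd2 was the most abundant at 26.8, 31.8, 45.0 and 57.9 FPKM. Fzd7 measured 20.1, 19.6, 20.5 and 23.4, and Fzd1 measured 14.2, 14.1, 10.6 and 14.7. Fzd8 measured 7.83, 10.6, 9.002 and 11.3, Fzd6 7.65, 8.19, 8.68 and 9.30, and Fzd4, which is also the receptor of Norrin, 5.67, 7.50, 5.11 and 5.72. Fzd2 was the one receptor of these with both knockdown libraries above both controls by more than 1.5-fold within each stiffness. The coreceptors differed little across the libraries, with Lrp6 at 26.2, 27.6, 23.6 and 25.6 and Lrp5 at 21.9, 22.2, 21.4 and 20.1. In the knockdown, Lrp6 at 0.5 kPa (log2 ratio -0.15) and Lrp5 at 12 kPa (-0.14) were lower by slightly more than 1.1-fold.

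The R-spondins, secreted proteins that keep Wnt receptors at the cell surface, were low to moderate. Rspo3 measured 5.17, 5.79, 4.16 and 4.97 FPKM. Rspo2 measured 1.48, 3.44, 1.82 and 2.60, and Rspo1 measured 1.45, 2.51, 1.67 and 2.202. Each of the 3 was higher at 12 than at 0.5 kPa in control and in knockdown cells.

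Secreted inhibitors were led by Dkk3, a divergent Dickkopf family member, at 40.7, 39.4, 23.4 and 26.2 FPKM, and by Dkk2, a ligand of Lrp6, at 17.8, 15.0, 15.3 and 13.3. Notum, an enzyme that removes the lipid from Wnts, was at 12.2, 6.59, 8.57 and 11.3. Sfrp1, which binds Wnts outside the cell, was at 2.40, 3.88, 1.38 and 2.63. Dkk1, which blocks Lrp5 and Lrp6, was low in the controls (0.586 and 1.08) and higher in the knockdown libraries (3.70 and 3.01), and Sfrp2 was at 0.400 and 0.311 against 1.48 and 2.203. Sfrp4, Sfrp5 and Wif1 stayed at or below 0.258.

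Of the nuclear partners of β-catenin, Tcf7 measured 20.7, 17.1, 8.77 and 9.85 FPKM and Lef1 1.64, 0.859, 0.573 and 1.17. Axin2, a scaffold of the β-catenin destruction complex and a widely used target gene, was at 1.97, 1.19, 1.61 and 2.02. Nkd1, a Dishevelled-binding feedback inhibitor, was at 1.17, 0.553, 1.66 and 1.64. Lef1 and Nkd1 therefore did not pass FPKM 2 in any library, and their values rest on between 54.9 and 421 estimated reads.

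The first comparison asked how gene levels differed between the stiff and the soft matrix in control cells. Among the 18 genes above FPKM 2 in all libraries, 4 were lower and 6 were higher by more than 1.1-fold at 12 kPa, with a median log2 ratio of 0.003. Over all 10489 genes that passed the same filter, 16.9% were lower and 17.9% were higher, with a median of 0.003. Wnt7b had the lowest ratio of all those genes, at 2.53-fold lower (log2 ratio -1.34, 95% counting interval -1.55 to -1.14). Notum was the 18th lowest (log2 ratio -0.89, interval -1.09 to -0.70). Tcf7 (-0.27) and Dkk2 (-0.25) were also lower. The 6 higher genes were Fzd8 (0.43), Fzd4 (0.40), Fzd2 (0.25), Porcn (0.21), Wnt5b (0.18) and Rspo3 (0.16), of which Porcn, Wnt5b and Rspo3 had counting intervals that included 0.

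The 27 genes above FPKM 2 in at least 1 library were also read at a wider threshold of 1.5-fold. In control cells 3 of them were lower at 12 kPa (Wnt7b, Notum and Axin2), beside 1.68% of 11351 genes, and 4 were higher (Rspo2, Dkk1, Rspo1 and Sfrp1), beside 1.69%. Rspo1 and Rspo2 passed FPKM 2 in the 12 kPa libraries alone and Dkk1 in the knockdown libraries alone, so the count of higher genes follows in part from the filter. Among the 18 genes above 2 in all libraries, 2 were lower and 0 were higher by more than 1.5-fold. Rspo2 had the largest of the higher ratios, 2.32-fold (log2 ratio 1.21, interval 0.91 to 1.53). Dkk1, at 0.88, had an interval of 0.27 to 1.51 because the control library at 0.5 kPa held an estimated 38.1 reads of it.

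The 4 feedback and nuclear genes had lower levels on the stiff matrix in control cells, and 1 of them, Tcf7, passed the filter. The log2 ratio was -0.72 for Axin2 (interval -1.05 to -0.39), -1.08 for Nkd1 (-1.55 to -0.61) and -0.93 for Lef1 (-1.37 to -0.51). Dkk1, a secreted inhibitor that is also a target of the pathway, was higher (0.88). In a separate list of pathway targets, 2 of the 7 genes that passed the filter were lower and 3 were higher by more than 1.1-fold, with a median log2 ratio of 0.06, so targets differed in direction. Of the other pathway genes, Lgr6, a receptor of R-spondins, measured 5.72, 3.04, 4.73 and 6.59 FPKM (log2 ratio -0.91 in control cells), and Apcdd1, a membrane-bound Wnt inhibitor, measured 16.0, 8.63, 13.4 and 12.3 (-0.89). These 2 had the largest absolute ratios of the 53 further pathway genes that passed the filter. Of the 53, 12 were lower and 10 were higher by more than 1.1-fold, near the 16.9% and 17.9% of all genes, with a median of -0.005.

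**Figure D2:**
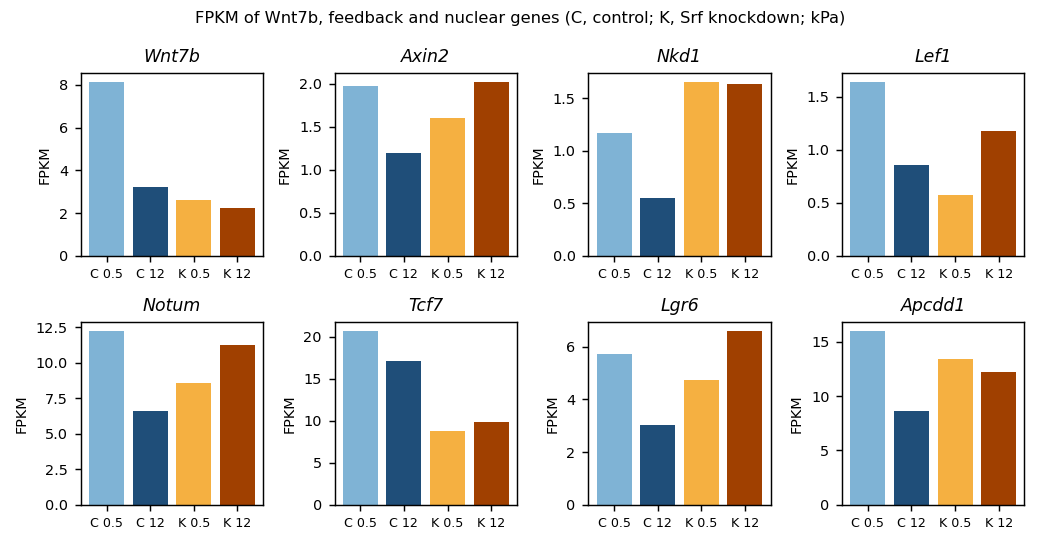
FPKM (linear axis from 0) of Wnt7b, the feedback and nuclear genes Axin2, Nkd1, Lef1, Notum and Tcf7, and the further pathway genes Lgr6 and Apcdd1, with 1 bar per library (C, control; K, Srf knockdown; stiffness in kPa). In control cells the bar at 12 kPa is lower than that at 0.5 kPa for all 8 genes, which were picked for display with their values known, and in knockdown cells Axin2, Lef1, Notum, Tcf7 and Lgr6 run the other way.

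In Srf-knockdown cells the same comparison gave a different picture. Of the 18 genes, 2 were lower and 11 were higher at 12 kPa by more than 1.1-fold, with a median log2 ratio of 0.17. Over all genes 13.0% were lower and 17.6% were higher, with a median of 0.006. The 2 lower genes were Wnt7b (-0.24) and Dkk2 (-0.20). Wnt5a had the 6th highest ratio of the 10489 genes, 2.17-fold (log2 ratio 1.12, interval 1.05 to 1.195), whereas in control cells its log2 ratio was -0.11 (-0.17 to -0.05).

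The other higher genes in knockdown cells were Fzd1 (0.48), Notum (0.40), Wnt16 (0.39), Fzd2 (0.36), Fzd8 (0.33), Rspo3 (0.26), Fzd7 (0.19), Tcf7 (0.17), Fzd4 (0.16) and Dkk3 (0.16). Of 6 Frizzled genes 5 were higher on the stiff matrix, beside 17.6% of all genes. In control cells 3 of 6 were higher, beside 17.9%. The counting intervals of all 13 genes past the threshold lay on 1 side of 0. At 1.5-fold, 0 of the 27 genes were lower, beside 0.590% of 11351 genes, and 3 were higher, Wnt5a, Sfrp1 (0.93) and Wnt9a (0.64), beside 1.22%. Wnt9a passed FPKM 2 in the knockdown library at 12 kPa alone, the library in which it was higher, and of the 18 genes 1 was higher, Wnt5a.

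**Figure D3:**
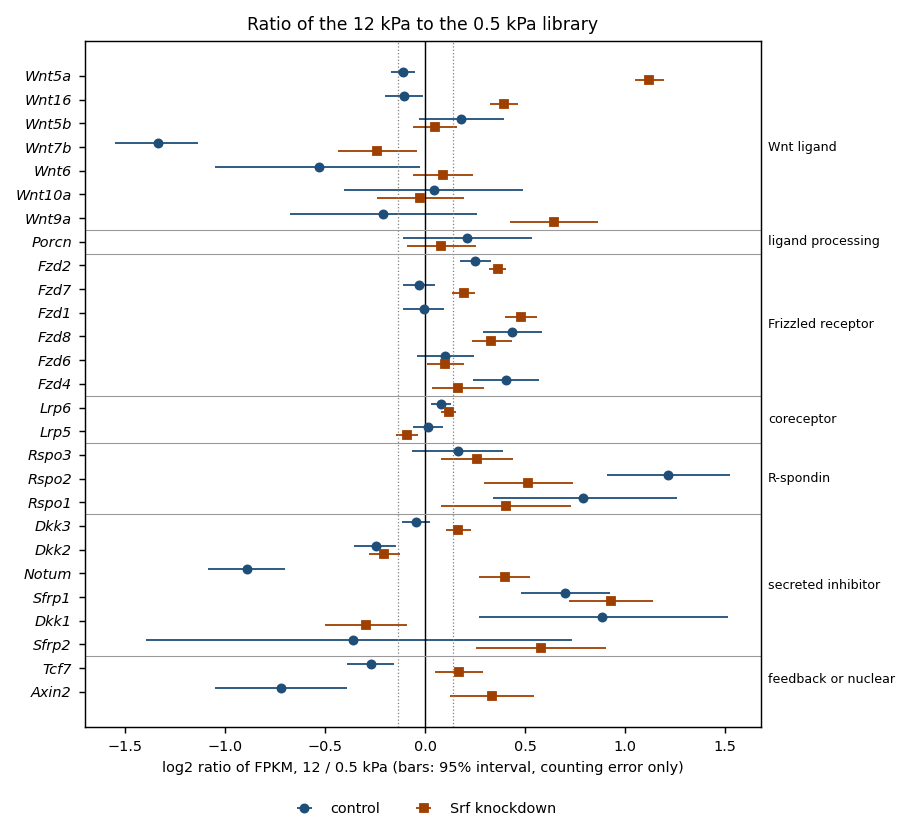
Log2 ratio of FPKM at 12 kPa to FPKM at 0.5 kPa in control cells (circles) and Srf-knockdown cells (squares) for the 27 genes above FPKM 2 in at least 1 library, with 95% counting intervals; dotted lines mark 1.1-fold. Wnt5a sits at -0.11 in control and 1.12 in knockdown cells, and Notum at -0.89 and 0.40.

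For 6 of the 27 genes the ratio between the matrices passed 1.1-fold in opposite directions in the control and the knockdown cells, beside 7.22% of 11351 genes. Of the 6, Notum and Tcf7 were above FPKM 2 in all libraries, while Axin2, Sfrp2 and Wnt9a passed 2 in the knockdown at 12 kPa alone and Dkk1 in the knockdown libraries alone, so the count follows in part from the filter. Notum, Axin2, Tcf7, Wnt9a and Sfrp2 were lower at 12 kPa in control and higher in knockdown cells, and Dkk1 was higher in control (0.88) and lower in knockdown cells (-0.30). For Axin2 the log2 ratio was -0.72 in control and 0.33 in knockdown cells (interval 0.12 to 0.54). The control intervals of Wnt9a (-0.68 to 0.26) and Sfrp2 (-1.40 to 0.73) included 0. Lef1, below the filter, had ratios of -0.93 and 1.04, and the receptor Fzd3, at 0.651, 1.28, 1.47 and 0.949 FPKM, had ratios of 0.98 and -0.63. With 1 library per condition the difference between the ratios was not tested, and with ratios centred on transcript GC content that of Tcf7 in knockdown cells was 0.14, inside 1.1-fold.

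The second comparison set the knockdown against the control cells at the same stiffness. At 0.5 kPa, 11 of the 18 genes were lower and 5 were higher by more than 1.1-fold, with a median log2 ratio of -0.19, beside 35.7% lower and 37.4% higher and a median of 0.01 over all genes. At 12 kPa, 8 were lower and 7 were higher, with a median of -0.02, beside 35.9% and 37.6%. The comparisons at each stiffness share libraries with those between matrices, so the ratios of a gene are not independent of each other.

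Wnt5a was the gene of the 18 with the lowest knockdown ratio at 0.5 kPa. It was 4.04-fold lower there (log2 ratio -2.01, interval -2.09 to -1.94) and 1.72-fold lower at 12 kPa (-0.78, -0.84 to -0.72). Wnt7b was 3.10-fold lower at 0.5 kPa (-1.63) and 1.45-fold lower at 12 kPa (-0.54). Tcf7 was lower by 2.36-fold (-1.24) and 1.74-fold (-0.80), and Dkk3 had log2 ratios of -0.80 and -0.59. For these genes the knockdown was lower than the control at both stiffnesses, and for each of the 4 the ratio was nearer to 0 at 12 kPa. Dkk2 (-0.22 and -0.18), Rspo3 (-0.31 and -0.22) and Fzd4 (-0.15 and -0.39) were also lower past 1.1-fold at both stiffnesses. Of these, Fzd4 went the other way, with the ratio farther from 0 at 12 kPa.

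Genes higher in the knockdown at both stiffnesses came from several roles. Wnt5b had log2 ratios of 0.98 at 0.5 kPa and 0.85 at 12 kPa, Porcn of 0.85 and 0.72, and Fzd2 of 0.75 and 0.86. Fzd6 was 0.18 at both. Notum was lower in the knockdown at 0.5 kPa (-0.51, interval -0.66 to -0.37) and higher at 12 kPa (0.77, 0.60 to 0.95), and Wnt16 likewise (-0.30 and 0.20). All but 1 of the ratios past the threshold had counting intervals without 0, the exception being Fzd4 at 0.5 kPa (-0.15). With each ratio centred among genes of like transcript GC content, Fzd7 (0.08), Dkk2 (-0.07) and Rspo3 (-0.02) at 12 kPa and Fzd8 (0.07), Lrp6 (-0.07) and Fzd4 (-0.13) at 0.5 kPa lay inside 1.1-fold.

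Some genes at or below FPKM 2 in both controls passed it in the knockdown libraries. Of the 27 genes, 4 were higher by more than 2-fold at both stiffnesses, beside 3.24% of 11351 genes, and 0 were lower by that much at both, beside 2.74%. All 4 entered the 27 through knockdown libraries, where they were high, so the count is a description of the filter as much as of the genes. Of the 18 genes above 2 in all libraries, 0 were higher by more than 2-fold at either stiffness. Wnt6 was 4.49-fold higher at 0.5 kPa (log2 ratio 2.17, interval 1.85 to 2.501) and 6.91-fold at 12 kPa (2.79, 2.39 to 3.22). Dkk1 was 6.31-fold (2.66, 2.18 to 3.18) and 2.79-fold higher (1.48, 1.08 to 1.903). Sfrp2 was 3.69-fold and 7.08-fold higher, and Wnt10a 2.11-fold and 2.01-fold. Wnt6 and Wnt10a are neighbours on chromosome 1 of the mouse genome (GRCm38, chr1:74754342-74785322 and chr1:74792019-74804176), with 6.70 kb between their annotated ends.

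**Figure D4:**
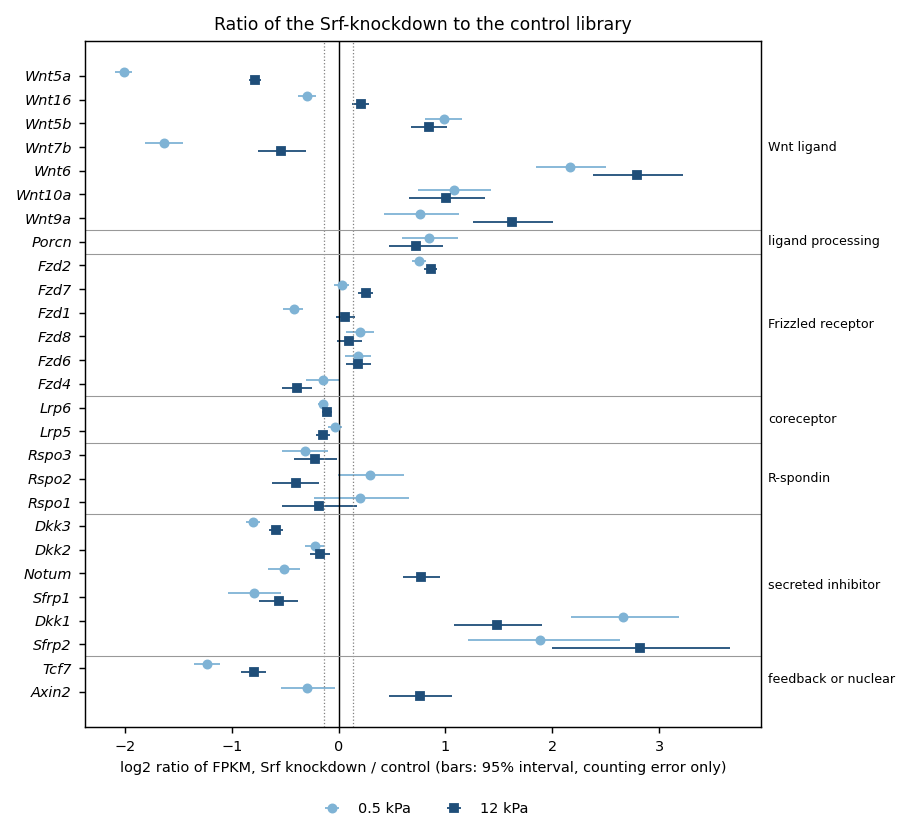
Log2 ratio of FPKM in Srf-knockdown to FPKM in control cells at 0.5 kPa (circles) and 12 kPa (squares) for the 27 genes above FPKM 2 in at least 1 library, with 95% counting intervals; dotted lines mark 1.1-fold. Wnt6, Dkk1 and Sfrp2 lie farthest to the right, and Wnt5a at 0.5 kPa lies farthest to the left at -2.01.

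The makeup of the expressed ligands differed between control and knockdown cells. The 19 ligands summed to 66.5, 58.0, 52.7 and 68.2 FPKM. Wnt5a made up 38.5% and 40.9% of that sum in the control libraries and 12.0% and 20.2% in the knockdown libraries. Wnt16 kept a share between 32.3% and 34.4%. The share of Wnt5b was 9.25% and 12.0% in the controls and 23.0% and 18.4% in the knockdown, and that of Wnt6 was 2.51% and 1.99% against 14.2% and 11.7%. The 10 Frizzled genes summed to 85.1, 95.7, 101.5 and 124.8 FPKM, of which Fzd2 held 31.5%, 33.3%, 44.4% and 46.4%.

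**Figure D5:**
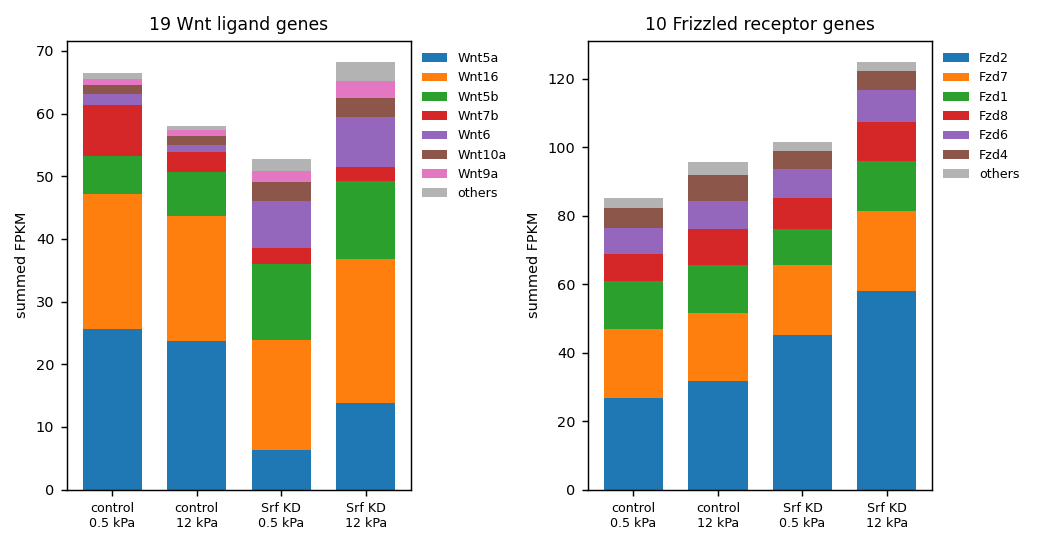
Stacked bars of FPKM summed over the 19 Wnt ligand genes (left) and the 10 Frizzled genes (right) in each of the 4 libraries; KD is Srf knockdown. Wnt5a is the largest part of the ligand bar in both controls and Wnt16 in both knockdown libraries, and the Fzd2 part is largest in the knockdown at 12 kPa.

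Genes that stayed low were read as a set of their own. Between a highest FPKM of 0.1 and 2 there were 12 of the 49 genes, of which 6 were higher by more than 1.1-fold in the knockdown at both stiffnesses, beside 37.4% of 3523 genes in that range, and 3 were lower, beside 23.2%. In that range 5 of 6 ligands were among the higher genes. Wnt10b measured 0.222, 0.0892, 0.614 and 0.887 FPKM, Wnt11 0.232, 0.151, 0.465 and 0.812, and Wnt2b 0.220, 0.146, 0.342 and 0.504. Wnt4 measured 0.172, 0.125, 0.311 and 0.458, and Wnt7a was listed at 0 in both controls and at 0.0299 and 0.167 in the knockdown libraries, the last resting on an estimated 30.9 reads. Wnt7a thus reached the range through the knockdown at 12 kPa alone. At 0.5 kPa the counting intervals of the knockdown ratios of Wnt2b (-0.13 to 1.405) and Wnt7a (lower limit -1.23) included 0. The knockdown libraries were also the deeper ones, and the part of depth in these low values was not tested.

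Among the low receptors, Fzd5 was lower in the knockdown at both stiffnesses, with 1.72, 1.98, 0.888 and 1.15 FPKM and log2 ratios of -0.96 and -0.78. Fzd9 measured 0.558, 0.614, 0.276 and 0.422, and its ratio at 12 kPa had an interval that included 0 (-1.21 to 0.14). Wnt2 was the third lower gene, at or below 0.117 in every library. Its intervals included 0 at 0.5 kPa (-2.37 to 1.11) and at 12 kPa (-3.49 to 0.75). Nkd1 was the one feedback gene among the higher ones, with log2 ratios of 0.50 at 0.5 kPa and 1.57 at 12 kPa.

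The wider pathway was read over a list of 70 further genes, 53 of them above FPKM 2 in all libraries. In knockdown cells 3 were lower and 20 higher at 12 kPa by more than 1.1-fold, beside 13.0% and 17.6% of all genes, with a median log2 ratio of 0.08. The secreted protein Cthrc1 had the largest ratio there (0.84), at 11.7, 14.4, 7.65 and 13.7 FPKM, followed by Gpc4 (0.53). Knockdown against control gave 25 lower and 22 higher genes at 0.5 kPa, beside 35.7% and 37.4% of all genes, and 16 lower and 26 higher at 12 kPa, beside 35.9% and 37.6%. Beyond 2-fold at both stiffnesses were Gpc4, a cell-surface heparan sulfate proteoglycan, at 41.03, 46.7, 11.5 and 16.6, and in the other direction Id2, an inhibitor of basic helix-loop-helix factors, at 9.79, 11.2, 46.6 and 47.8, Prickle3, of the planar polarity family, at 2.86, 2.90, 6.80 and 7.11, and Zcchc12 at 2.07, 2.15, 4.49 and 5.20. Of 9 receptors and coreceptors other than Frizzled and Lrp, 7 were lower and 1 was higher in the knockdown at 0.5 kPa, and 5 were lower and 3 were higher at 12 kPa.

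Windows before starts of Dkk1, Lef1, Tcf7, Axin2 and Nkd1 are shown as sequence, as examples of genes whose levels differed between the matrices or with the knockdown. Other such genes had windows that are not shown. Those of Wnt6, Sfrp2, Wnt9a and Wnt10b held neither motif, and Wnt11 and Wnt5b each had a window with a match. For Lef1 and Tcf7 the windows shown are those that held a motif, and the other 2 Lef1 windows and the other Tcf7 window held neither. No window of Notum, Wnt5a, Wnt7b, Fzd2, Porcn or Dkk3 was used here. Each is the 250 bases before an annotated start, 5′ to 3′, from RefSeq (GRCm38.p6), which held 38 such windows for 31 of the 49 genes. Capitals mark CTTTGA or its reverse complement, 1 form of the core bound by Tcf and Lef factors. Other forms of the core were not searched. Capitals also mark matches to the CArG box, the element bound by Srf. Neither motif overlapped the other. Both strands were searched. The CTTTGA form was in 13.8% of 32851 mouse windows and in 5 of the 38, those of Dkk1, Lef1, Fzd1, Wnt11 and Wnt5b. The CArG box was in 1.47% of mouse windows and in 2 of the 38, at starts inside the genes Lef1 and Tcf7.
Dkk1, chr19:30549497-30549746, minus strand: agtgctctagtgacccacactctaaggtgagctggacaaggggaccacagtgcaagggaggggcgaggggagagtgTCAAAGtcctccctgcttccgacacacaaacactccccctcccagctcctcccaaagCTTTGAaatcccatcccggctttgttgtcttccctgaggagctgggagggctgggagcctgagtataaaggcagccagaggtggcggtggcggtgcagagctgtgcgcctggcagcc
Lef1, chr3:131156044-131156293, plus strand: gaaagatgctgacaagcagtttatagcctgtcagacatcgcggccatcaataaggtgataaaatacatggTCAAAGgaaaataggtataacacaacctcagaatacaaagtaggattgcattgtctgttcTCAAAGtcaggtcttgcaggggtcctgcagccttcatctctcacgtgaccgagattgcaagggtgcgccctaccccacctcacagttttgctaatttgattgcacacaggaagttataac
Lef1, chr3:131112541-131112790, plus strand: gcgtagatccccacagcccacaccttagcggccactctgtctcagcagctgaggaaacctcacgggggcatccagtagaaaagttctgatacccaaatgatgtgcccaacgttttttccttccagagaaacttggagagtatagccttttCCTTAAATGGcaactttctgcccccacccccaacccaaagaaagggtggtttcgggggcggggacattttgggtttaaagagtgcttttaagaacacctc
Tcf7, chr11:52282596-52282845, minus strand: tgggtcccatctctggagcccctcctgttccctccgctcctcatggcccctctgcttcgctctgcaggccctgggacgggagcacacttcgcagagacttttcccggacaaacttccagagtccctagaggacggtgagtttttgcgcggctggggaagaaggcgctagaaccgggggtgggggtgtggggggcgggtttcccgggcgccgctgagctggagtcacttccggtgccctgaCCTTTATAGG
Axin2, chr11:108920099-108920348, plus strand: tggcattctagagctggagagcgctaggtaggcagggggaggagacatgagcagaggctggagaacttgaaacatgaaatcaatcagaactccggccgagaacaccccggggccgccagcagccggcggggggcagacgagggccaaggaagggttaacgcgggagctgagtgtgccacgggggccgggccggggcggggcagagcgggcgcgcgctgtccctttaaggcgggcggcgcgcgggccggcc
Nkd1, chr8:88527383-88527632, plus strand: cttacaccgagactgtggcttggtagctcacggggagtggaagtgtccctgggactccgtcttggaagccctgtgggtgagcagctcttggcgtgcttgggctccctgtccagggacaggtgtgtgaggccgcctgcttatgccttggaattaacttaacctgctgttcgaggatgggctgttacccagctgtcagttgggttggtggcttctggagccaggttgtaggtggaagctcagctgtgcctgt

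The Dkk1 window held the CTTTGA form 174 and 117 bases before the start. The first of the 2 Lef1 windows held it 180 and 120 bases before. The CArG box began 100 bases before the other Lef1 start and 10 bases before the Tcf7 start. The Axin2 and Nkd1 windows held neither motif. They lay inside the annotated genes, which begin at chr11:108917828 and chr8:88521342, so the bases before those positions were not searched. The Lef1 windows shown also lay inside the gene, which begins at chr3:131110297. The marked motifs are matches of letters in short windows, and which start was used was not given. Tcf7, with a CArG box at 1 of its starts, was lower in the knockdown at both stiffnesses. Lef1 was lower at 0.5 kPa (log2 ratio -1.52) and higher at 12 kPa (0.45). Over all genes 35.7% were lower in the knockdown at 0.5 kPa and 35.9% at 12 kPa. Any part of these motifs in the levels was not tested.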

How the data were processed

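Total RNA of 4 libraries was sequenced as single-end, stranded poly(A) libraries. The authors trimmed the reads with cutadapt 1.9.1, aligned them to mm10 with TopHat2 2.1.0 and Bowtie2 2.2.8, and computed FPKM with Cufflinks 2.2.1 on GENCODE M14. The deposited FPKM values were used as deposited, and whether counting used strand was not given in the sources used here. Symbols listed more than once (63) were left out, none of them a member. Calls used the authors' rule of FPKM above 2 in all libraries and a 1.1-fold threshold, without pseudocount. A wider set (above 2 in at least 1 library) was read at 1.5-fold and 2-fold.

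Members and gene lists were chosen with earlier results of these data known. Every member above FPKM 2 in any library is named, and lower ones where they passed 0.5; of the further pathway genes, those beyond 2-fold in the knockdown at both stiffnesses and those with the 2 largest ratios between matrices. Wls and low members named beside a count were chosen after their values were seen. Depth was estimated from whole-read steps of FPKM up to 0.1 over 6087 genes with 1 transcript, with transcript lengths from GENCODE M1, longest transcript, less 200 nucleotides. Of 36 member values between 0.5 and 30 reads, 27 lay within 0.1 of a whole read (75%). Reads gave exact binomial intervals for ratios, for counting error only. At that depth 3 reads on 2000 nucleotides equal an FPKM between 0.0267 and 0.0691. Scripts used Python 3.11.15, pandas 2.3.3 and scipy 1.17.1, and were checked on simulated data. Alternatives are given in the closing section.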

Additional observations from a re-analysis of the deposited data

Results flagged for a closer look

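For 6 genes the ratio of 12 to 0.5 kPa passed 1.1-fold in opposite directions in control and Srf-knockdown cells. The log2 ratio in control cells minus that in knockdown cells was -1.29 for Notum, -1.05 for Axin2, -0.94 for Sfrp2, -0.85 for Wnt9a, -0.44 for Tcf7 and 1.18 for Dkk1. With 1 library per condition these differences were not tested. The control intervals of Sfrp2 and Wnt9a included 0, and the knockdown ratio of Tcf7 was 0.14 after centring on transcript GC content, inside 1.1-fold.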

How the results depend on the processing

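No paired analysis was possible because a single library stood for every group. The counts are those of members past the threshold, and each percentage is the share of all genes under the same setting. With a minimum FPKM of 1 in all libraries, 9 of 24 genes were higher in the knockdown at 0.5 kPa (5 of 18 in the report), beside 38.1%. With a minimum of 5, 1 of 15 genes was lower at 12 kPa in knockdown cells (2 of 18 in the report), beside 12.2%. With FPKM above 2 in at least 1 library there were 27 genes. At 12 kPa in control cells 8 were lower and 10 higher, beside 18.4% and 19.4%. At 12 kPa in knockdown cells 17 were higher, beside 19.6%. In the knockdown 12 were higher at 0.5 kPa and 13 at 12 kPa, beside 38.7% and 39.0%. Some of these genes passed FPKM 2 only in libraries where they were high, so these counts follow in part from the filter. All 49 genes were read with no minimum and a pseudocount of 1. Between matrices in control cells 9 were lower and 12 higher, beside 11.3% and 12.4%. In knockdown cells 4 were lower and 25 higher, beside 8.23% and 12.2%. The knockdown gave 16 higher genes at 0.5 kPa and 20 at 12 kPa, beside 24.8% and 25.3%.

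At a 1.2-fold threshold 2 of the 18 genes were higher between matrices in control cells, beside 7.27%. In knockdown cells 0 were lower and 6 higher, beside 3.14% and 5.99%. The knockdown gave 3 higher genes at 0.5 kPa, beside 26.5%, and 5 lower and 4 higher at 12 kPa, beside 25.8% and 27.5%. At 1.5-fold 2 were lower and 0 higher between matrices in control cells, beside 0.963% and 0.858%. In knockdown cells 0 were lower and 1 higher, beside 0.324% and 0.458%. The knockdown gave 4 lower and 3 higher at 0.5 kPa, beside 9.28% and 9.19%. At 12 kPa it gave 3 lower and 4 higher, beside 8.88% and 10.2%. At 2-fold the counts were 1 lower and 0 higher, 0 lower and 1 higher, 3 lower and 0 higher, and 0 lower and 0 higher in the same order. The shares of all genes were 0.105% and 0.124%, 0.0286% and 0.0572%, 2.86% and 2.45%, and 2.22% and 2.74% in that order.

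Centring on the median or scaling to the 75th percentile changed no call of the 18 genes. A pseudocount of 1 took Fzd4 at 0.5 kPa (-0.13) and Lrp5 at 12 kPa (-0.14) inside 1.1-fold in the knockdown comparisons. Centring each log2 ratio within 50 bins of transcript GC content, chosen after seeing the data, lost 8 calls, among them Fzd7 (0.08), Dkk2 (-0.07) and Rspo3 (-0.02) in the knockdown at 12 kPa and Fzd8 (0.07) at 0.5 kPa, and gained 4. The cause of these changes was not tested. No direction of a called gene reversed. With 1 library per condition, a difference of any size, near 1.1-fold or larger, cannot be told from a difference between cultures.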
